A study of Mus musculus with 2 samples.

Results

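The genes described here encode the main building blocks of the actin and tubulin cytoskeleton and their closest regulators. There are 8 of them, Actb, Actg1, Cfl1, Pfn1, Tuba1a, Tuba1b, Tuba1c and Tubb5, out of 12817 protein-coding genes that had at least 1 contact in the data. They were chosen by name as highly transcribed cytoskeleton genes and by no value measured here, although earlier results of these data were known. Each contact with 1 end within 1 kb of the gene in the GENCODE vM1 annotation (genome build mm9) was assigned to it.

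The study examined how the loss of Ronin, a THAP-domain DNA-binding protein encoded by Thap11, affects contacts between promoters. Contacts held by RNA Pol II were mapped with ChIA-PET, a method that sequences ligated pairs of chromatin fragments, in mouse embryonic stem cells (ESCs). The Ronin KO cells were CreERT2; Roninflox/flox ESCs given tamoxifen for 4 days, and the control cells were ESCs of that same genotype given ethanol for 4 days. Both were grown with LIF on gelatin. Being of the same genotype, the controls carried the floxed alleles and the Cre as well. The cells came from embryos as 1 line, ZCL1032, in which the Cre is expressed from the Rosa26 locus.

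Actin monomers assemble into filaments that give a cell its shape and allow it to move. Profilin (Pfn1) loads actin monomers for assembly, and cofilin (Cfl1) severs and disassembles filaments. Alpha-tubulin (Tuba1a, Tuba1b, Tuba1c) and beta-tubulin (Tubb5) pair to build microtubules, the tracks for transport and the fibres of the mitotic spindle. Because almost every dividing cell makes these proteins in quantity, their promoters are occupied by RNA Pol II in most cell types. In ChIA-PET, fragments held together with RNA Pol II are ligated. A paired-end tag (PET) with its ends in 2 different peaks is counted here as 1 contact between them. This is looser than the paper's high-confidence interactions, which needed several independent PETs, whereas nearly all pairs described below have 1. The paper also left pairs between chromosomes out of its further analyses of contacts held by Ronin, because these have been reported to be noisier.

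The tables of linked peaks held 44328 interactions with 65276 PETs in Ronin KO, against 128267 interactions with 156097 PETs in control, so that Ronin KO had 41.8% as many PETs and 34.6% as many interactions. Each table was made by the authors from 2 merged replicates, and there was 1 table per group. No spread between replicates could be computed, every test below compares these 2 libraries and not the conditions, and all intervals cover counting error only. The deletion could not be checked with contact data. The Thap11 gene itself had 46 PETs in Ronin KO and 109 in control. All 8 of the listed ESC markers (Pou5f1, Sox2, Nanog and others) had PETs, 235 in Ronin KO and 735 in control, whereas none of the 5 fibroblast markers had any in either library, and the 3 primitive endoderm markers had 6 PETs in Ronin KO and 3 in control.

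The sequences that bear most directly on the contacts below are shown first. Promoters were searched on both strands, from 250 bases before to 50 bases after the most upstream annotated transcript start, and those of Tubb5 and Actg1 are shown as examples with a match. The motifs were the core of the Ronin-binding motif, GGGANNTGTAGT, which 2.46% of 22380 protein-coding promoters held, and the CArG box of serum response factor, a known regulator of actin genes, which 1.47% held. The 250 bases before each start are given here on the coding strand, with the matching bases in capitals.
Tubb5 (chr17:35975252-35975501, minus strand): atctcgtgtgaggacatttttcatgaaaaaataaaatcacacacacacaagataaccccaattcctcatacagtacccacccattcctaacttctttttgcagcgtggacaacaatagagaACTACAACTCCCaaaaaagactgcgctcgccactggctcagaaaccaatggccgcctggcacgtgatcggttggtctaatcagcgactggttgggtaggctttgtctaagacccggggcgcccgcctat
Actg1 (chr11:120209857-120210106, minus strand): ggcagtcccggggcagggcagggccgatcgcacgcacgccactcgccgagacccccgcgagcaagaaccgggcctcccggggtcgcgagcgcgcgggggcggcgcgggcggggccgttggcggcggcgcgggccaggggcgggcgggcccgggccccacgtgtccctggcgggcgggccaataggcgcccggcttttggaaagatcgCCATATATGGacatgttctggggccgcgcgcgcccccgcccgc
The Tubb5 match to the Ronin-binding core lay on the opposite strand, with its nearest base 118 bp before the start. It was the only copy in any peak of the 8 genes, in Ronin KO and in control, while 4.62% of all peaks in Ronin KO and 3.68% in control held a copy. Of the peaks between 10 and 45 kb wide, 9.13% in Ronin KO and 8.59% in control did. The CArG box of Actg1 began at position -43 and was not particular to Actg1 among the 8 genes, whose other promoters are not all described here. A TATA box (TATAAA), which 13.4% of all promoters held on either strand, was in neither of the promoters shown. Actg1 had the most GC-rich of the 8 upstream sequences, at 79.2% GC against a median of 54.0% over all promoters.

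All 8 genes had fewer PETs in Ronin KO than in control. Actb, which encodes beta-actin, had the largest count, with 91 PETs in Ronin KO and 263 in control, or 34.6% of control (95% exact interval 27.0 to 44.1). Actg1, which encodes gamma-actin, had 55 PETs in Ronin KO and 185 in control, or 29.7% (21.6 to 40.4), the lowest ratio of the 8. Actb and Actg1, the genes of both cytoplasmic actins, had the largest counts of the 8 in control.

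Of the actin regulators, Cfl1 had 55 PETs in Ronin KO and 117 in control, or 47.0% (33.5 to 65.3), the highest ratio of the 8. Pfn1 had 40 PETs in Ronin KO and 112 in control, or 35.7% (24.2 to 51.7). Cfl1 and Actg1 had equal counts in Ronin KO and different ones in control.

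Among the tubulin genes the counts were lower, from 25 to 29 PETs in Ronin KO and from 58 to 91 in control. Tuba1b had 27 PETs in Ronin KO and 89 in control, or 30.3% (19.0 to 47.1). Tuba1a had 27 PETs in Ronin KO and 58 in control, or 46.6% (28.3 to 74.7). Tuba1c had 25 PETs in Ronin KO and 68 in control, or 36.8% (22.3 to 58.9), and Tubb5 had 29 PETs in Ronin KO and 91 in control, or 31.9% (20.2 to 48.9). The 8 intervals overlapped each other, and none reached 100%. Per kb of peak, Actb had 4.16 PETs in Ronin KO and 12.1 in control, Actg1 had 2.38 in Ronin KO and 8.66 in control, and Tuba1b had 2.37 in Ronin KO and 8.19 in control, while the other 5 genes had 0.980 to 1.41 in Ronin KO and 2.75 to 4.14 in control. On this scale Tuba1b, whose peaks covered 11.4 kb in Ronin KO and 10.9 kb in control, stood beside Actg1 in both libraries.

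**Figure D1:**
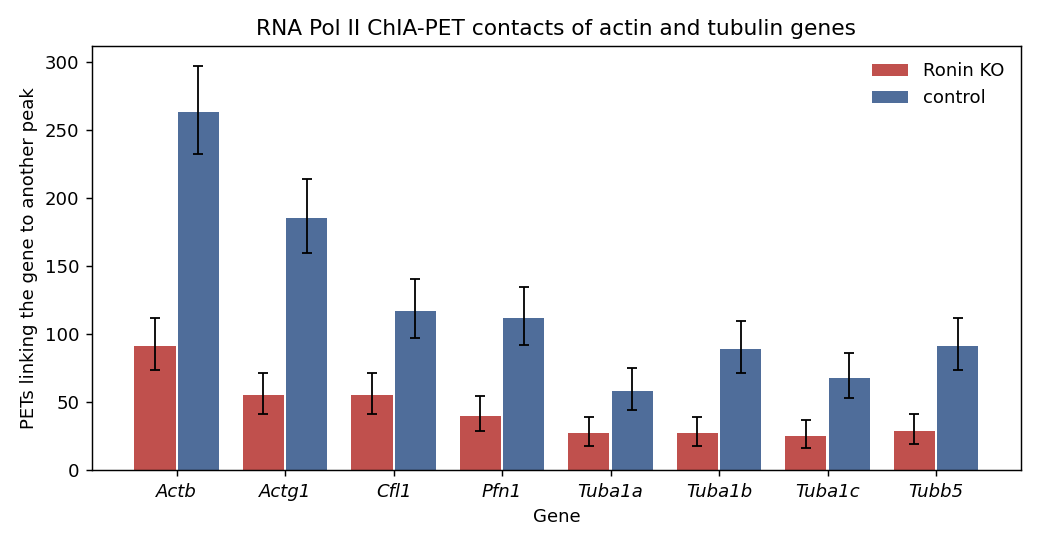
PETs that link each gene to another peak (y axis, count) for the 8 genes (x axis), with Ronin KO in red left of control in blue and bars showing exact Poisson 95% intervals of the count. Every gene has the lower bar in Ronin KO, from 25 PETs for Tuba1c to 91 for Actb, against 58 for Tuba1a to 263 for Actb in control.

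A gene with fewer PETs in Ronin KO was the rule in these data. Of all 12817 genes, 88.9% had fewer PETs in Ronin KO, and so did 98.7% of the 2126 genes with at least 85 PETs in both libraries together, the total of the lowest of the 8 genes (Tuba1a). The median of those 2126 genes was 34.2% of control (quartiles 28.5 to 41.0), and 6 of the 8 genes lay between these quartiles, with Cfl1 and Tuba1a above them. The peaks of all 8 genes covered more bases in Ronin KO, most clearly those of Tuba1a (19.8 kb, 14.0 in control) and Cfl1 (39.0 kb, 31.7 in control). With promoters only, Tuba1a stood at 34.2% and Cfl1 still at 47.0%. The part of peak width in these ratios was not tested. Taken once each, the contacts of the 8 genes came to 346 PETs in Ronin KO and 979 in control, or 35.3% (31.2 to 40.0), against 41.8% over all PETs. Counted as interactions they came to 309 in Ronin KO and 893 in control, or 34.6% (30.3 to 39.4), against 34.6% over all interactions.

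The PETs of each gene were tested with a 2-sided exact binomial test against the share of Ronin KO in all linking PETs (29.5%), with Benjamini-Hochberg adjustment over all 12817 genes. None of the 8 genes passed an adjusted p of 0.05 (the lowest was 0.276, for Actg1), and 1 of the 8, again Actg1, had an unadjusted p under 0.05 (exact p = 0.028). Over all genes 2.24% (287) were called lower and 2% (256) higher in Ronin KO by this test. That split was not stable, with 150 lower and 303 higher without the peaks of Gm10800 and Gm10801, and 88 lower and 253 higher with interactions as the unit. The Gm10800 peak had 1776 partners in control and the Gm10801 peak 346. After that scaling the 8 genes stood between 71.1% (Actg1) and 112% (Cfl1) of control.

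The call depended on the scaling. Without scaling, all 8 genes were lower in Ronin KO by the same exact test, with adjusted p between 1.08e-18 (Actb) and 0.00351 (Tuba1a), as were 42.6% of all genes and 96.7% of the 2126 genes with as many PETs. Scaled to all PETs over 5 kb that the study lists for each library, whether or not both ends lie in peaks, 7 of the 8 were lower, Tuba1a being the exception (adjusted p = 0.0612, exact binomial test), as were 32.1% of all genes and 90.1% of those 2126.

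**Figure D2:**
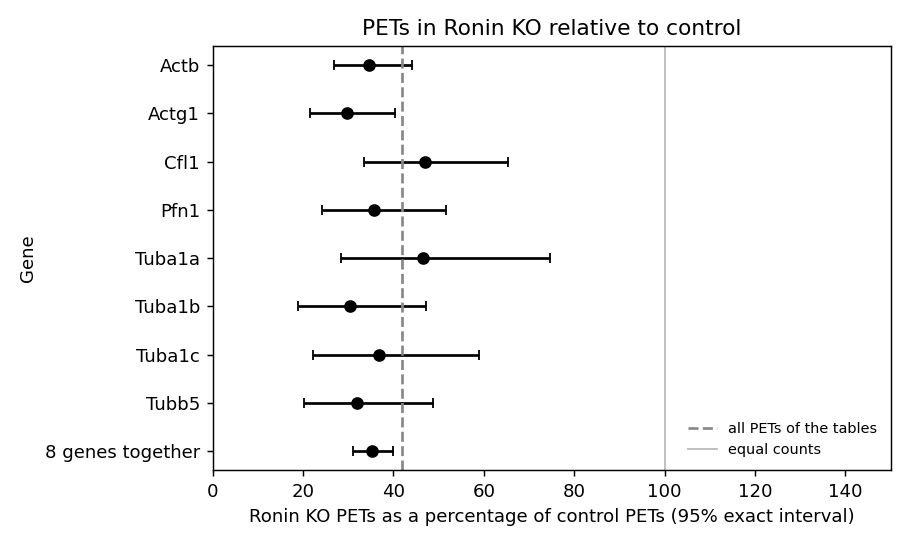
PETs in Ronin KO as a percentage of PETs in control (x axis) for each gene and for the 8 genes with each interaction taken once (y axis); points are ratios, bars exact 95% intervals, the dashed line the ratio over all PETs of the tables (41.8%) and the solid line equal counts. Cfl1 (47.0%) and Tuba1a (46.6%) lie above the dashed line and the other genes below it, and only the intervals of Actg1 and of the 8 genes together do not reach it.

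Actb, on chromosome 5 (chr5:143664794-143668433, minus strand), lay in a single peak of 21.9 kb in Ronin KO and 21.8 kb in control that also reached Fbxl18, so that contacts of the 2 genes could not be told apart. Its contacts were uneven. A single pair, with a peak on chromosome 12, held 37 of the 91 PETs in Ronin KO (40.7%) and 68 of the 263 in control (25.9%). No other partner of Actb had more than 1 PET in Ronin KO or 2 PETs in control. The pair ranked 29th of 39291 interchromosomal pairs by PETs in Ronin KO and 22nd of 115937 in control.

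The chromosome 12 peak spanned 1284 bp in Ronin KO (chr12:17466907-17468190) and 10264 bp in control (chr12:17461662-17471925) and overlapped no protein-coding gene. The nearest was Nol10, a nucleolar protein gene, 29.5 kb away in Ronin KO and 24.3 kb in control, and then Odc1, which encodes ornithine decarboxylase. In Ronin KO, Actb was the only partner of this peak, with all of its 37 PETs, and in control Actb held 68 of 76 PETs over 9 partners. The pair stood at 54.4% of control (35.4 to 82.4), and the rest of the Actb contacts, 54 PETs in Ronin KO and 195 in control, at 27.7% (20.1 to 37.6).

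Both peaks of this pair held an identical stretch of 105 bp, printed here with 15 flanking bases on either side. The capitals mark the identical bases, and the chromosome 12 sequence is given on the minus strand.
Actb peak (chr5:143659073-143659207, plus strand): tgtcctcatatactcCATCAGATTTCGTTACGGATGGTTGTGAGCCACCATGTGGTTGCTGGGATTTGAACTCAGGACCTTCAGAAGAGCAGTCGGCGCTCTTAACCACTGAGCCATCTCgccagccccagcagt
Chromosome 12 peak (chr12:17468014-17468148, minus strand): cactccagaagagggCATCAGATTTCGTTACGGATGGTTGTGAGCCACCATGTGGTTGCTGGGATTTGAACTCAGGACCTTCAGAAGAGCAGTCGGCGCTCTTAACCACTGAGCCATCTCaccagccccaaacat
The stretch lay 5.60 kb past the 3′ end of Actb and overlapped no annotated gene at either place. It had 3 exact copies in the genome, these 2 and 1 on chromosome X (chrX:55229907-55230011), which lay in no peak of Ronin KO or of control. Where the tags of the pair fell within their peaks is not in the tables, and the part of the shared sequence in the pair was not tested. Without the pair, Actb remained short of the threshold after scaling, with an adjusted p of 0.115 by the exact binomial test.

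The partners of Actb lay on 20 chromosomes in Ronin KO and on 21 in control, with the mitochondrial genome counted as 1 of them in each library. Its nearest partners differed between the libraries. In Ronin KO the nearest was in Foxk1, which encodes a forkhead transcription factor, at 736 kb with 1 PET. In control there was 1 PET each to a peak in Fbxl18 at 12.8 kb and to Fscn1, which encodes the actin-bundling protein fascin, at 60.8 kb, and 2 PETs to a peak without a protein-coding gene at 25.6 kb. In control, Actb also had 2 PETs each to further peaks, among them those at Zfp219, Ntan1 and Rrn3, Prrc2b, Rfx5, Scamp5 and Ppcdc, and Gm10801. The Gm10801 peak had 346 partners in control, and its pair with Actb a deposited adjusted p of 0.203 (hypergeometric test). The Prrc2b pair joined peaks with 100 or more identical bases in a row. Besides the chromosome 12 peak, 2 partners were found in both libraries with 1 PET in each. They were a peak over H3f3b (histone variant H3.3), Unk, Itgb4 and Galk1, and a chromosome 13 peak without a protein-coding gene. In this order, their deposited adjusted p (hypergeometric test) was 0.062 and 0.0298 in Ronin KO, and 0.156 and 0.0707 in control.

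By the Euclidean distance of log2(PETs + 1) over 4 values (intrachromosomal and interchromosomal PETs in both libraries), the genes closest to Actb were Fbxl18 in its own peak, Golph3l on chromosome 3 and Slc25a40 elsewhere on chromosome 5. Golph3l had 5 intrachromosomal and 85 interchromosomal PETs in Ronin KO, against 14 intrachromosomal and 274 interchromosomal PETs in control. Slc25a40 had 5 and 96 in Ronin KO, against 16 and 262 in control.

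Actg1 (chr11:120207004-120209856, minus strand) lay across 3 peaks in each library. The peak at its 3′ end had 35 of the 55 PETs in Ronin KO and 129 of the 185 in control. The peak at its 5′ end, which also covered 0610009L18Rik, had 19 PETs in Ronin KO and 53 in control, and the short peak inside the gene had 1 in Ronin KO and 3 in control. The 3′ peak thus had the most contacts in both libraries, with 3.19 PETs per kb of peak in Ronin KO and 13.8 in control, against 1.66 in Ronin KO and 4.71 in control at the 5′ peak.

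Actg1 was joined to a peak reaching Aurkb, which encodes the mitotic kinase Aurora B, at 51.3 Mb in Ronin KO and 51.4 Mb in control. There was 1 PET in each library. The 2 Aurkb peaks overlapped only at their edges (chr11:68864021-68868467 in Ronin KO, chr11:68791300-68864237 in control). The control peak also covered Pfas and 1500010J02Rik and had 115 partners. The deposited adjusted p of this pair (hypergeometric test) was 0.00143 in Ronin KO and 0.0519 in control. Actg1 was also joined in both libraries to a peak reaching Frmd8 on chromosome 19, with 1 PET in each. No protein-coding transcript start lay within 2.5 kb of that peak, which had 618 partners in control. The deposited adjusted p of the pair in control was 0.22 (hypergeometric test). Its nearest partner was Fscn2, another fascin gene, with 2310003H01Rik at 30.8 kb in Ronin KO, and Bahcc1 at 114 kb in control. In control, 5 partners had 2 PETs each, among them peaks over Gpx4 and Polr2e, over Ptges3 and Naca, and over Jarid2. The Jarid2 pair joined peaks with 100 or more identical bases in a row. In Ronin KO no partner had more than 1 PET.

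Cfl1 (chr19:5490485-5494029, plus strand) was the 1 gene of the 8 with more contacts along its own chromosome in Ronin KO than in control, with 7 PETs in Ronin KO and 2 in control, or 350.0% (66.6 to 3453). The counts are too small for the interval to leave out 100%. Of the 7 in Ronin KO, 6 were within 1 Mb, with peaks over Snx32 (21.1 kb), Fosl1, Fibp and Ctsw (28.7 kb), Map3k11 (206 kb), Fau, Cdca5, Arl2 and others (603 kb), Batf2 (656 kb) and Rce1 and Pcx (862 kb). The 2 in control were with neighbouring peaks over Rbm14 and Rbm4b (713 kb) and over Rbm4b and the spectrin gene Spnb3 (736 kb). The Cfl1 peak was 39.0 kb wide in Ronin KO, with 5 other protein-coding genes, and 31.7 kb in control, with 3, so its contacts are those of several genes.

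Between chromosomes Cfl1 had 48 PETs in Ronin KO and 115 in control. It had 4 partners found in both libraries, the most of the 8 genes. These were Eif4a2 and Rfc4 on chromosome 16 (1 PET in Ronin KO and 2 in control), Atat1, Mrps18b and Ppp1r10 on chromosome 17, a large peak with Lamtor2, Rab25 and others on chromosome 3, and Naa38 and Ankrd7 on chromosome 6 (1 PET in each library). In the order listed, the deposited adjusted p of these pairs (hypergeometric test) was 0.0293, 0.0603, 0.045 and 0.00465 in Ronin KO. In control it was 0.00767, 0.115, 0.0684 and 0.0144. Atat1 encodes the enzyme that acetylates alpha-tubulin.

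Pfn1 (chr11:70465352-70468146, minus strand) lay in a peak of 40.8 kb in both libraries with 6 other protein-coding genes (Camta2, Eno3, Gp1ba, Rnf167, Slc25a11 and Spag7). It had 7 intrachromosomal PETs in Ronin KO and 9 in control. None in Ronin KO was within 1 Mb, and the nearest in control were a peak without a protein-coding gene at 209 kb and Polr2a, which encodes the largest subunit of RNA Pol II, at 908 kb. In control, Pfn1 had 2 PETs each with a cluster of histone genes on chromosome 13 and with the spectrin gene Spnb1 on chromosome 12. No partner of Pfn1 was found in both libraries.

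Tuba1b (chr15:98761856-98764996), Tuba1a (chr15:98780272-98783982), both on the minus strand, and Tuba1c (chr15:98860322-98868536), on the plus strand, form a cluster on chromosome 15. Their annotated coding sequences were 98.3% identical between Tuba1a and Tuba1b, 97.9% between Tuba1b and Tuba1c and 97.1% between Tuba1a and Tuba1c, compared with 88.7% between Actb and Actg1. The longest run of identical bases in the coding sequences was 468 bp, between Tuba1b and Tuba1c. Reads had been kept by the authors only where they mapped to 1 place in the genome, and a read that lies wholly within an identical stretch has more than 1 place. The peaks of these genes had gaps. Within the 3 genes there were 5 gaps between peaks in Ronin KO, of 128 to 643 bp, and 4 in control, of 204 to 997 bp. Stretches of at least 50 bp identical to another of the 3 genes covered 99.5% to 100.0% of each gap in Ronin KO and 96.5% to 100.0% in control. Of the whole genes with their introns, they made up 38.6% of Tuba1a, 48.6% of Tuba1b and 17.4% of Tuba1c. Several gaps, however, lay wholly in coding sequence, which is far more alike. Gaps also parted the Actg1 peaks, of 390 and 75 bp in Ronin KO and 366 and 63 bp in control, without such a share computed. The part of read mapping in the gaps was not tested.

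The alpha-tubulin genes were linked to each other in both libraries. In Ronin KO, Tuba1a was joined to Tuba1b over 21.5 kb and to Tuba1c over 97.9 kb. In control, Tuba1a was joined to Tuba1b over 18.6 kb and to Tuba1c over 76.1 kb, and Tuba1b to Tuba1c over 94.7 kb. Every one of these contacts had 1 PET, and every one joined peaks with 100 or more identical bases in a row, the longest run being 172 bp. The part of this shared sequence in the contacts was not tested.

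Apart from each other, the alpha-tubulin genes had other near partners mostly in control. In control, Tuba1a and Tuba1c each had 1 PET to a peak with Rhebl1 and Mll2, at 76.5 and 153 kb. Tuba1c also contacted Troap (49.4 kb), Arf3 (279 kb) and Larp4 (989 kb) in control. Tuba1b had contacts to peaks without a protein-coding gene, at 82.7 kb in Ronin KO and at 11.5 and 89.3 kb in control. Slc25a36 on chromosome 9 was a partner of Tuba1a in both libraries, with 1 PET in each. That PET came from the peak at the 5′ end of Tuba1a in Ronin KO and from the peak at its 3′ end in control. Ercc8 with Ndufaf2 on chromosome 13 was joined to Tuba1a by 2 PETs in Ronin KO and by none in control.

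**Figure D3:**
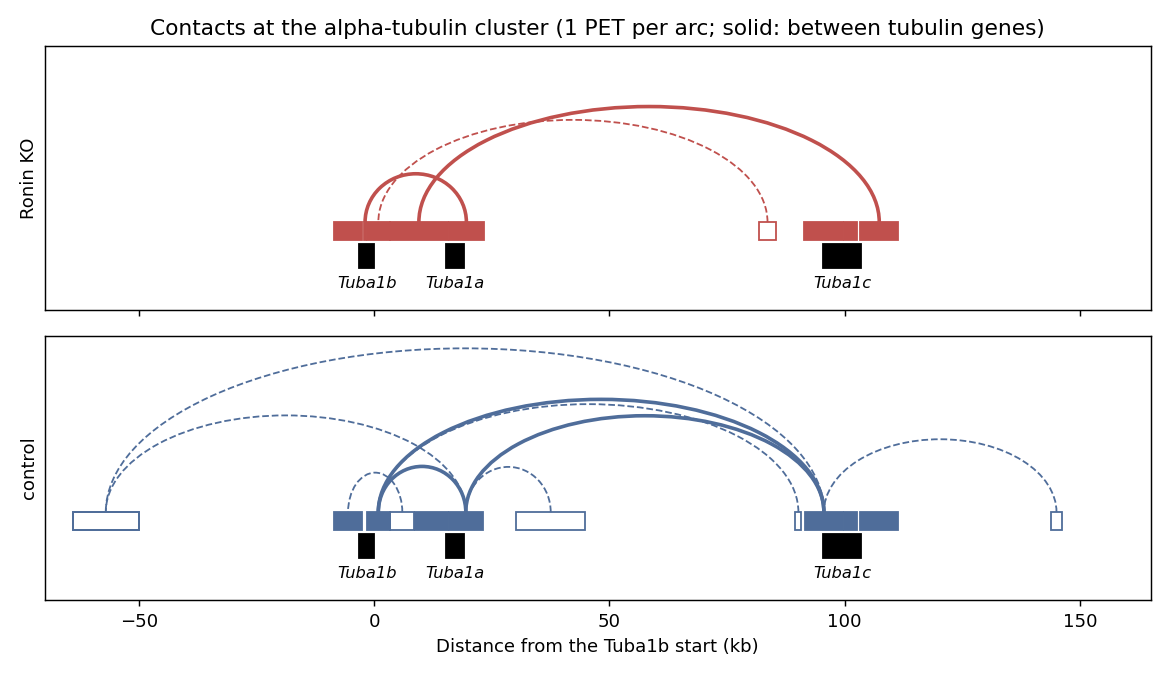
Peaks and contacts at the alpha-tubulin cluster by distance from the Tuba1b start (x axis, kb), with Ronin KO in the upper panel and control in the lower. Black boxes are genes, filled boxes their peaks, open boxes partner peaks and arcs contacts of 1 PET each, drawn between the centres of the peaks (solid between tubulin genes, dashed to other peaks). There are 2 solid arcs in Ronin KO and 3 in control, and fewer dashed arcs in Ronin KO.

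Tubb5 (chr17:35970871-35975251, minus strand) lay in a single peak with Flot1 and Mdc1, 28.0 kb wide in Ronin KO and 27.7 kb in control. It had 2 intrachromosomal PETs in Ronin KO, with Atat1, Mrps18b, Dhx16 and 2310061I04Rik at 54.1 kb and with a peak at 1.72 Mb. In control it had 4, the nearest at 248 kb to a peak without a protein-coding gene. A peak on chromosome 7 that spans Cd2bp2, Mylpf and 4 other genes was a partner in both libraries, and Sppl3 and Ncapg2, a condensin II subunit gene, were partners with 2 PETs in control. Tubb5 was the gene with the Ronin-binding core in its promoter, and its ratio was 31.9%, against 29.7% to 47.0% for the 7 genes without one. The part of the core in this ratio was not tested, because no other gene of the set held it. Ronin binding at these genes was not examined, so a gene without the core is not thereby unbound.

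Across the 8 genes, contacts along the same chromosome were a small share of interactions, 9.71% in Ronin KO (exact 95% interval 6.65 to 13.6) and 7.06% in control (5.46 to 8.94), against 11.4% of all interactions in Ronin KO and 9.61% in control. By PETs the share was 8.67% in Ronin KO (5.93 to 12.2) and 6.54% in control (5.07 to 8.27). Over all PETs it was 18.6% in Ronin KO and 15.8% in control. Between chromosomes the 8 genes had 24 (Tuba1c) to 86 (Actb) PETs in Ronin KO and 53 (Tuba1a) to 249 (Actb) in control. The intrachromosomal distances ranged widely, from 21.1 kb (Cfl1) to 108 Mb (Actb) in Ronin KO and from 11.5 kb (Tuba1b) to 114 Mb (Actb) in control. The median was 10.4 Mb over 30 interactions in Ronin KO and 15.8 Mb over 63 in control, compared with 4.57 Mb in Ronin KO and 10.3 Mb in control over all intrachromosomal interactions. Contacts within 1 Mb numbered 12 in Ronin KO and 21 in control.

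**Figure D4:**
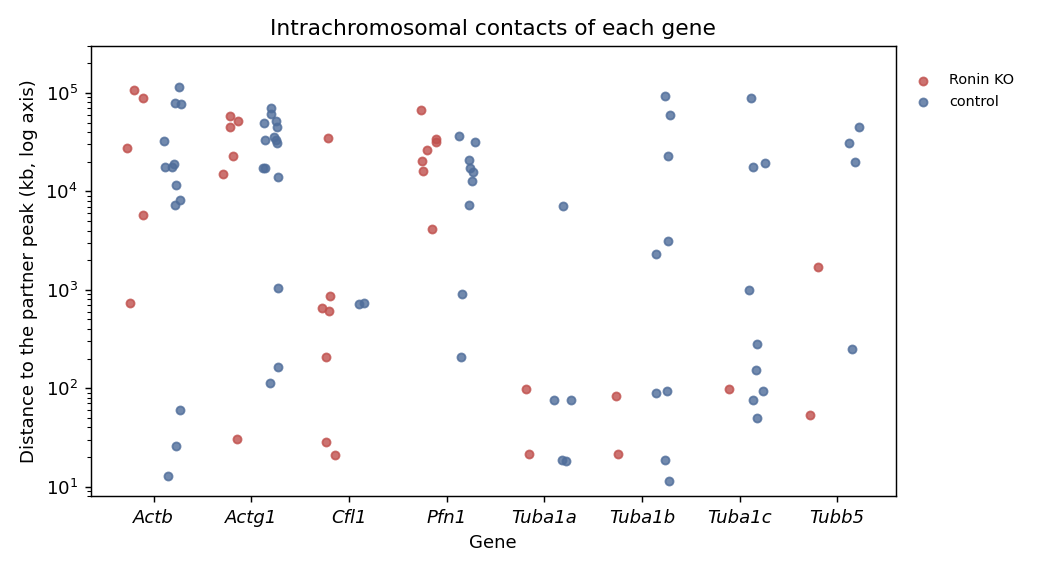
Distance from each gene's peak to its partner peak on the same chromosome (y axis, kb, log scale) for the 8 genes (x axis), each point 1 interaction, Ronin KO in red left of control in blue. Cfl1 has 7 points in Ronin KO and 2 in control, while Tuba1a, Tuba1b and Tuba1c have no point above 100 kb in Ronin KO.

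Nearly all interactions of the 8 genes rested on 1 PET, 307 of 309 (99.4%) in Ronin KO and 873 of 893 (97.8%) in control, compared with 97.9% of all interactions in Ronin KO and 98.3% in control. Overlap of partners between the libraries was computed for the 8 genes only, without the same share over all genes. Partners repeated for the same gene numbered from 0 (Pfn1 and Tuba1c) to 4 (Cfl1). Of 300 partner peaks in Ronin KO, 50 (16.7%, exact 95% interval 12.6 to 21.4) overlapped a partner of any of the 8 genes in control, and of 815 partner peaks in control 51 (6.26%, 4.69 to 8.15) overlapped one in Ronin KO. Most partner ends lay within 2.5 kb of an annotated transcript start, 78.6% in Ronin KO (73.6 to 83.1) and 76.2% in control (73.2 to 78.9), against 78.4% of all interaction ends in Ronin KO and 75.8% in control.

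Contacts among the 8 genes and partners shared by several of them were counted without a like count for other genes. Apart from the alpha-tubulin pairs, there was 1 PET between Pfn1 and Tuba1a in Ronin KO and 1 between Actg1 and Tubb5 in control. In Ronin KO, 9 partner peaks were reached by more than 1 of the 8 genes, and in control 68 were. Peaks of the alpha-tubulin genes themselves were among these in both libraries. The partner reached by the most of them, chosen after its values were seen, was in Ronin KO the peak with Lmna and Lamtor2 (Actb, Cfl1 and Tuba1a) and in control the peak with Eef1a1, the translation elongation factor gene, and Mto1 (Actb, Cfl1, Tuba1a and Tuba1b). The Lmna peak had 95 partners in all in Ronin KO, and the Eef1a1 peak had 280 in control.

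The wider cytoskeleton was described with a list of 73 further genes, 59 of which had PETs. Of these, 55 (93.2%) had fewer PETs in Ronin KO, against 88.9% of all genes, and 4 had more. The median log2 ratio of Ronin KO to control, with a pseudocount of 1, was -1.14 before and 0.01 after scaling to all linking PETs, compared with -1.49 and -0.25 for the 8 genes and -1.32 and -0.24 for all genes. The 5 of the list with the most PETs were Tpm3, Dstn, Limk2, Tbce and Vcl, and none of these passed the scaled test. Tpm3, a tropomyosin that lies along actin filaments, had 62 PETs in Ronin KO and 186 in control. The cofilin relative Dstn had 48 in Ronin KO and 153 in control, and Limk2, a kinase that phosphorylates cofilin, had 40 in Ronin KO and 119 in control. The tubulin-folding cofactor Tbce had 51 PETs in Ronin KO and 106 in control. Vcl, which links actin to adhesion sites, had 39 in Ronin KO and 96 in control.

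By family, 4 of 5 actins and actin-related genes with PETs and 9 of 10 further tubulins had fewer PETs in Ronin KO. So did 8 of 9 subunits of the actin-nucleating Arp2/3 complex and all 4 relatives of cofilin and profilin. The same held for all 6 capping and monomer-binding genes, 4 of 5 tubulin cofactors and all 3 microtubule regulators. Over all genes 88.9% had fewer, so these counts set no family apart. Of the 59 listed genes with PETs, 2 passed the scaled exact binomial test, while 2.24% of all genes were called lower and 2% higher. Ckap5, which encodes a microtubule polymerase, was lower, with 20 PETs in Ronin KO and 99 in control (adjusted p = 0.0435, exact binomial test), a call lost under 8 of 13 alternatives. These were a window of 5 kb, promoters alone, at least 2 PETs, intrachromosomal called interactions, interchromosomal interactions, interactions as the unit, and leaving out pairs with 100 or more identical bases in a row or the peaks of Gm10800 and Gm10801. Actg2, the smooth muscle gamma-actin gene, was called higher, with 9 PETs in Ronin KO and 0 in control (adjusted p = 0.000908, exact binomial test). All 9 came from a neighbouring peak over Dguok that ended 635 bp from Actg2 in Ronin KO and 2921 bp from it in control, where it had 14 PETs, and with a window of 5 kb Actg2 had 9 PETs in Ronin KO and 14 in control.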

How the data were processed

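Contacts were measured by RNA Pol II ChIA-PET in 2 libraries, Ronin KO and control, each a merge of 2 replicates. The authors removed linker sequence (cutadapt), aligned both mates on their own to mm9 (Bowtie 1.1.1), kept reads with 1 place in the genome, collapsed duplicate PETs, called peaks (MACS 1.4.2) and discarded intrachromosomal PETs shorter than 4 kb. For each pair of peaks the deposited tables hold a raw PET count, a signed distance in bp (a score) and a hypergeometric p-value with its Benjamini-Hochberg adjustment. Sequencing depth therefore enters the counts directly.

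Every interaction was counted once per protein-coding gene (GENCODE vM1) within 1 kb of a peak. Counts were tested with 2-sided exact binomial tests and ratios given exact conditional 95% intervals (scipy 1.17.1, statsmodels 0.14.6, Python 3.11.15), and the test was checked on simulated data. Peaks were compared for identical stretches of at least 100 bp in the NCBIM37 sequence (pysam 0.24.0), and coding sequences were aligned globally. The 8 genes and the gene lists were chosen with earlier results of these data known. Named partners were those with at least 2 PETs, found in both libraries or within 1 Mb, whatever their deposited adjusted p. There were 13 alternatives, of which 2 were added after seeing the data. Some partners and sequences are not reported here.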

Additional observations from a re-analysis of the deposited data

How the results depend on the processing

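The 8 genes together stood at 33.9% to 36.8% of control under 9 of the 10 alternatives that could change their counts, the other 3 altering only the scaling or the genes tested. The exception was the set of intrachromosomal interactions with a deposited adjusted p under 0.05 (53.6%, 30 PETs in Ronin KO and 56 in control), where Cfl1 was higher in Ronin KO (700.0% of control, 7 PETs against 1). With interactions of at least 2 PETs, Tuba1a had 2 PETs in Ronin KO and 0 in control and therefore no ratio. Ratios of single genes moved more, with Tuba1b at 20.4% for promoters only and 43.2% for a window of 5 kb, and Tuba1a at 34.2% for promoters only. Of the 8 genes, 8 passed the exact binomial test without scaling and 7 with scaling to PETs over 5 kb, and none under the other 11 alternatives. Of the other cytoskeleton genes, 29 passed without scaling, 25 with scaling to PETs over 5 kb, 1 at promoters only, 1 for interchromosomal interactions, 1 among genes with at least 10 PETs, and 0 with a window of 5 kb, with at least 2 PETs or with intrachromosomal called interactions. Over all genes, 5564 passed without scaling, 4251 with scaling to PETs over 5 kb, 341 with interactions as the unit, 195 with at least 2 PETs and 43 for intrachromosomal called interactions, compared with 543. Leaving out the Actb pair with chromosome 12, or the peaks at Gm10800 and Gm10801, both chosen after seeing the data, moved no total of called genes past 1.5 times, but without those peaks 150 genes were lower and 303 higher, compared with 287 and 256. The causes of these shifts were not tested, except that settings with fewer PETs have less to count. No paired analysis was possible because each group had 1 merged library. The depth was 25 to 91 PETs per gene in Ronin KO and 58 to 263 in control.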
